A study of Homo sapiens with 6 samples.

Results

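Integrin and laminin subunits were examined in A549 cells, a line established from a human lung adenocarcinoma and labelled NSCLC, after knockdown of METTL3, the catalytic subunit of the complex that writes m6A onto mRNA. The subunits were chosen by gene symbol alone, as every row named ITGA, ITGB, LAMA, LAMB or LAMC followed by its subunit letter or number, without antisense rows and without the integrin-binding proteins ITGB1BP1, ITGB1BP2 and ITGB3BP. This gave 38 of the 57781 rows in the deposited count table, namely 18 integrin alpha, 8 integrin beta and 12 laminin rows. The libraries fell into 2 groups, 3 from A549 cells with a vector control, whose genotype is given as WT, and 3 from A549 cells with METTL3 knockdown (shMETTL3), all grown in the same medium. The hairpin came from a plasmid, the number of hairpins is not given in the sources used here, and the columns call the knockdown libraries sh1 to sh3. The methods say in general terms that experiments were repeated independently, but no source used here says of these libraries whether the 3 of a group came from separate cultures, so p-values measure the spread between these libraries, which may be technical.

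Integrins are cell surface receptors made of an alpha and a beta chain, and the pairing decides which matrix protein or cell surface ligand is bound. ITGB1 pairs with most alpha chains, ITGAV with several beta chains, and ITGB4 with ITGA6 alone, in the receptor that anchors hemidesmosomes of epithelia to laminin. Laminins are trimers of an alpha, a beta and a gamma chain that form the scaffold of the basement membrane, the sheet under the alveolar and bronchial epithelium of the lung.

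Library totals ran from 14931426 to 19108928 counts. METTL3, the targeted gene, had 49.9 ± 0.676 CPM (counts scaled to a common library size, SD, n = 3) in vector libraries and 19.4 ± 0.525 CPM (SD, n = 3) in shMETTL3 libraries, so that the knockdown was visible in each library of the group (p = 0.1 in an exact two-sided permutation test, where 3 against 3 allows no smaller p). CPM values were scaled by the TMM method of edgeR, and a gene was called when its Benjamini-Hochberg adjusted p over all 15125 genes tested was under 0.05 in edgeR's quasi-likelihood test. Most of the transcriptome passed this threshold, 10067 genes or 66.6%. TMM factors lay between 0.92 and 0.953 in vector and between 1.05 and 1.07 in shMETTL3 libraries. With scaling by library size alone the log2 fold changes of the tested genes had a median of 0.18, against 0.0022 under TMM. In bulk RNA, fewer cells of a type and less RNA per cell cannot be told apart.

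Of the 38 subunits, 29 had enough counts to be tested, and 22 of these (75.9%) were called, against 66.6% of all tested genes. Higher calls numbered 15 and lower calls 7, where 33.7% and 32.9% of all tested genes were called higher and lower. Among the tested subunits, 8 were called with an absolute log2 fold change of at least 1, a size reached by 17.6% of all tested genes. Of the 8, 6 were higher and 2 lower, where 10.2% of all tested genes were called higher and 7.42% lower at this size. For 22 of the 29 the groups were free of overlap, against 69.4% of all tested genes. The median log2 fold change was 0.43 over the tested subunits and 0.0022 over all tested genes, with median absolute values of 0.66 and 0.41. When at least 10 counts were required in every library, the subunit median was 0.27 and that of all genes 0.0017. ITGAX, ITGA11 and ITGAM reached the filter's 0.559 CPM in shMETTL3 libraries only, so that their rise was a condition of their being tested, and the counts above are a description of the tested rows and not of all 38. Of 19 tested integrin subunits, 12 were called higher, ITGAX, ITGA11 and ITGAM among them, and 4 lower. Of 10 tested laminin chains, 3 were called higher and 3 lower, and a difference between the 2 families was not tested. The changes ran from an ITGAX rise of 5.17 on the log2 scale to an ITGA1 value of -1.55.

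Levels were compared between genes per length, as CPM per kilobase of the canonical transcript (RPKM). ITGB1 was the most abundant subunit, at 419.5 ± 23.8 RPKM (SD, n = 3) in vector and 604.5 ± 18.3 RPKM (SD, n = 3) in shMETTL3 libraries. In vector libraries LAMB1 followed at 131.1 RPKM, then ITGA3 at 109.3, ITGB4 at 97.1, ITGB5 at 51.1, LAMC1 at 41.4 and LAMA5 at 40.6 RPKM. Within this order, ITGA3 and ITGB4 differed by little more than their SDs of 10.6 and 8.64 RPKM, and LAMC1 and LAMA5 by less than the LAMA5 SD of 2.57 RPKM. In shMETTL3 libraries ITGB4 moved down from rank 4 to rank 6 at 39.6 RPKM, while ITGB5 moved up to the place next after ITGA3 at 79.1 RPKM. A level of at least 1 RPKM was reached by 19 of the 38 subunits in each group. With the length of all annotated exons in place of the canonical transcript, an alternative chosen after seeing the data, ITGB1 stayed first, while ITGB4 ranked second and LAMB1 sixth over the 6 libraries, so that places below the first, and how far ITGB1 stood above ITGB4, depend on the length used.

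**Figure D1:**
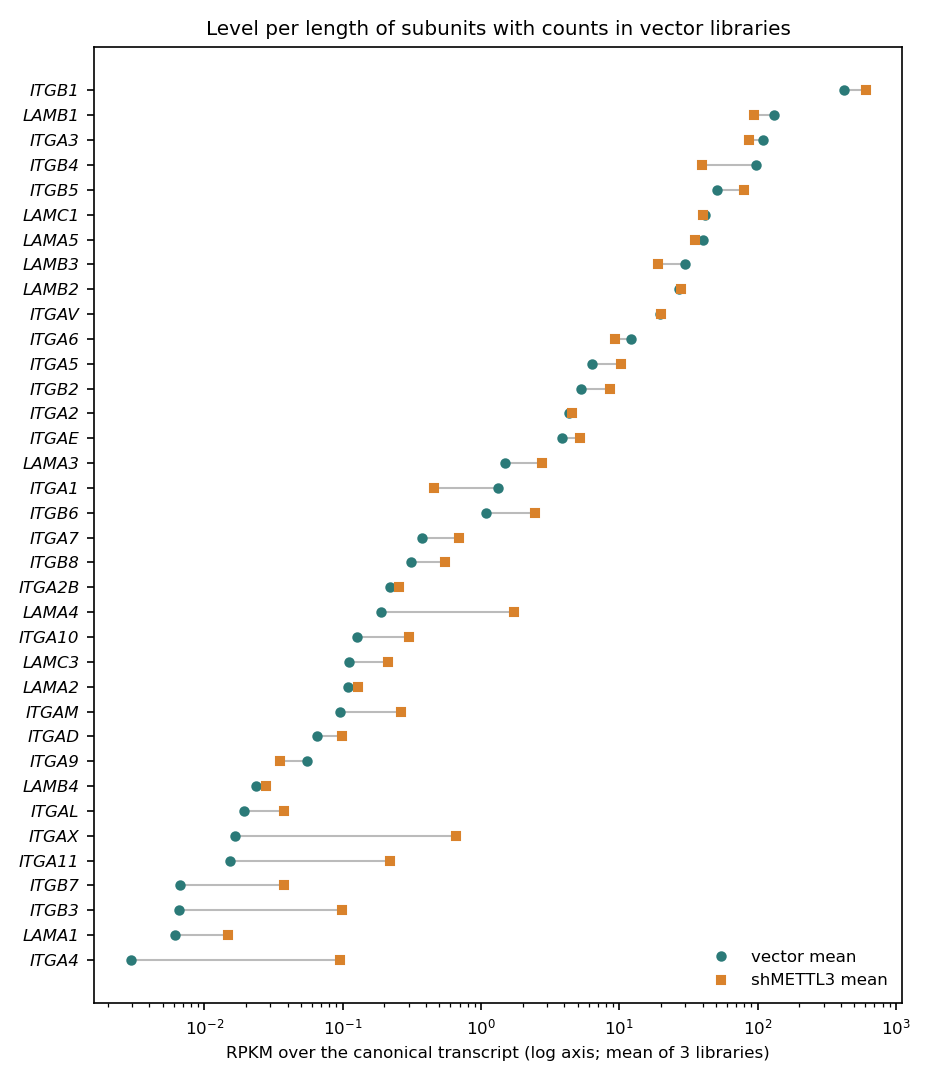
Mean level per length of subunits with a count in vector libraries, in RPKM over the canonical transcript on a log axis, for vector (circles) and shMETTL3 (squares), 3 libraries each, sorted by the vector mean. ITGB1 tops both groups, at 419.5 and 604.5 RPKM. The widest gaps, of ITGAX, ITGA11, ITGB3 and ITGA4, belong to subunits under 1 RPKM in both groups.

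The laminin-binding integrins of the hemidesmosome were lower. ITGB4, whose long cytoplasmic tail links laminin to keratin filaments, had 538.8, 548.0 and 631.3 CPM in vector replicates 1, 2 and 3 and 234.1, 239.1 and 227.4 CPM in shMETTL3 replicates 1, 2 and 3. The groups were far apart, and vector replicate 3 was the highest of its group. This was a log2 fold change of -1.29 (standard error 0.057, edgeR quasi-likelihood adjusted p = 3.61e-17), and it stayed between -1.34 and -1.12 under the 15 alternatives that recomputed it. In GRCh37, ITGB4 occupies bases 73717408 to 73753899 of chromosome 17 (plus strand), with 40 exons in the canonical transcript. ITGA6, its only alpha partner, had 72.2, 72.0 and 67.0 CPM in vector libraries and 51.1, 55.1 and 56.1 CPM in shMETTL3 libraries, a log2 fold change of -0.38 (standard error 0.059). The groups did not overlap, but the change was smaller than that of ITGB4, and the ratio of ITGB4 to ITGA6 in RPKM went from 8.06 ± 1.08 (SD, n = 3) to 4.27 ± 0.261 (SD, n = 3) without overlap.

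ITGA3, which pairs with ITGB1 to bind laminins of the epithelial basement membrane, was the most abundant alpha chain. It had 509.3, 500.3 and 593.9 CPM in vector and 413.1, 428.8 and 429.4 CPM in shMETTL3 libraries, a log2 fold change of -0.34 (standard error 0.057, adjusted p = 9.77e-06 from the same test). The vector libraries were all higher, with replicate 3 the highest of them. ITGA7, the laminin-binding alpha chain best known from muscle, rose by 0.89 on the log2 scale from a low level, with 28, 26 and 25 counts in vector and 60, 67 and 33 counts in shMETTL3 libraries.

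The tested beta chains other than ITGB4 rose. Of the 8, 6 were tested and all 6 were called, 5 of them higher, where 66.6% of all tested genes were called and 33.7% called higher. ITGB1, the partner of most alpha chains, had 1670.0, 1518.0 and 1513.0 CPM in vector and 2315.0, 2276.0 and 2182.0 CPM in shMETTL3 libraries, a log2 fold change of 0.53 (standard error 0.052, edgeR quasi-likelihood adjusted p = 8.45e-10). Its groups were far apart relative to their SDs of 89.0 and 68.3 CPM. As a share of the summed RPKM of the 8 beta chains, ITGB1 made up 73.0% ± 2.01 (SD, n = 3) in vector and 82.2% ± 0.565 in shMETTL3 libraries, and ITGB4 16.9% ± 1.73 and 5.39% ± 0.106. Measured over all annotated exons the ITGB1 shares were 46.8% and 62.2% and the ITGB4 shares 36.8% and 13.9%, so the sizes of the shares depend on the length used while their directions did not.

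ITGB5, ITGB6 and ITGB8 are chains that pair with ITGAV, and the last 2 of these receptors are known for releasing latent TGF-beta. ITGB5 had 225.8, 228.0 and 226.3 CPM in vector and 350.9, 340.7 and 362.4 CPM in shMETTL3 libraries, a log2 fold change of 0.63 (standard error 0.049). ITGB6, a chain of epithelia, had 76, 94 and 88 counts in vector and 225, 242 and 166 counts in shMETTL3 libraries, and its log2 fold change of 1.17 (standard error 0.13, adjusted p = 6.97e-09 from the same test) was the largest rise among the 6 tested beta chains. ITGB8 had 67, 36 and 40 counts in vector and 94, 93 and 82 counts in shMETTL3 libraries, a log2 fold change of 0.80 (standard error 0.19), with vector replicate 1 well above the other two. Their common partner ITGAV, at 138.8 ± 7.04 CPM (SD, n = 3) in vector and 141.1 ± 4.90 CPM (SD, n = 3) in shMETTL3 libraries, was not called, with a log2 fold change of 0.024 (standard error 0.053). The ITGAV value was not stable, however, at 0.20 with library size alone and -0.17 when GC content and length were corrected by offsets, each past the threshold.

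ITGA5, which forms the classical fibronectin receptor with ITGB1, was also higher. It had 25.4, 25.8 and 29.9 CPM in vector and 38.7, 47.1 and 45.4 CPM in shMETTL3 libraries, a log2 fold change of 0.69 (standard error 0.079, edgeR quasi-likelihood adjusted p = 1.32e-08). The ratio of ITGA5 to ITGAV in RPKM rose from 0.324 ± 0.0458 to 0.515 ± 0.0677 (SD, n = 3 each), and the groups did not overlap. ITGA2B, the alpha chain of the platelet fibrinogen receptor, stood at 5 to 27 counts per library and was not called, at 0.26 (standard error 0.41).

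The collagen-binding alpha chains, all of which pair with ITGB1, split. ITGA1, a receptor for basement membrane collagen, had the largest fall of all tested subunits, with 256, 234 and 241 counts in vector and 90, 104 and 77 counts in shMETTL3 libraries. Scaled to CPM these were 14.4 ± 0.390 (SD, n = 3) and 4.90 ± 0.267 (SD, n = 3), a log2 fold change of -1.55 (standard error 0.11, edgeR quasi-likelihood adjusted p = 2.57e-12). ITGA2, its neighbour on chromosome 5 with 30.1 kb between the genes, had 608, 538 and 574 counts in vector and 770, 634 and 576 counts in shMETTL3 libraries. Its groups overlapped after scaling, and the log2 fold change of 0.089 (standard error 0.076) was not called, though scaling by library size alone gave 0.26 and a call (adjusted p = 0.00515 from the same test). The ratio of ITGA1 to ITGA2 in RPKM thus went from 0.311 ± 0.0062 to 0.101 ± 0.0175 (SD, n = 3 each). Exons of ITGA1 overlap those of PELO and a pseudogene on the same strand over 1070 bases, so that reads there may have been left uncounted or given to either gene.

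ITGA11, a receptor for fibrillar collagen best known from fibroblasts, had 3, 1 and 4 counts in vector and 47, 49 and 29 counts in shMETTL3 libraries. No library of one group came near the other. The ratio of the summed counts was 14.4, with a 95% counting interval from 7.09 to 34.1, and the fitted log2 fold change was 3.78 (standard error 0.41). ITGA10, the collagen receptor of cartilage, had 12, 11 and 10 counts in vector and 34, 34 and 19 counts in shMETTL3 libraries, a log2 fold change of 1.27 (standard error 0.32). Both stayed under 0.4 RPKM in every library, where ITGA2 was at 4.58 ± 0.528 RPKM in the shMETTL3 group.

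Integrin chains that are best known from leukocytes were measurable, and several rose. ITGB2, the shared beta chain of the leukocyte integrins, had 237, 269 and 248 counts in vector and 512, 434 and 387 counts in shMETTL3 libraries, a log2 fold change of 0.71 (standard error 0.092, edgeR quasi-likelihood adjusted p = 1.47e-07). Its exons overlap ITGB2-AS1 on the opposite strand over 303 bases, and that row, at 24 to 35 counts per library, was not called. ITGAX, the alpha chain known as CD11c on dendritic cells, had 2, 1 and 1 counts in vector and 63, 60 and 47 counts in shMETTL3 libraries, the largest rise of all tested subunits. The ratio of its summed counts was 39.2, with a 95% counting interval from 15.0 to 146.0, and its fitted log2 fold change was 5.17 (standard error 0.42). Intervals of this kind cover counting error only.

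ITGAM, the CD11b chain of myeloid cells, lies 22.2 kb from ITGAX on chromosome 16 and had 8, 8 and 7 counts in vector and 24, 25 and 20 counts in shMETTL3 libraries, a ratio of summed counts of 2.77 with a 95% counting interval from 1.70 to 4.65. ITGAD, 10.3 kb on the other side of ITGAX, stayed between 2 and 8 counts in all libraries, and ITGAL, the lymphocyte chain CD11a, between 1 and 6. The chains of this cluster are related copies, and how reads shared between them were counted is not given in the sources used here. ITGAE, the chain that lets intraepithelial lymphocytes bind E-cadherin, had 264, 238 and 245 counts in vector and 408, 368 and 312 counts in shMETTL3 libraries, a log2 fold change of 0.43 (standard error 0.086). Exons of ITGAE overlap HASPIN on the opposite strand, and whether reads were counted by strand is not given in the sources used here.

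Most markers of leukocytes were at or near 0, with CD14 as the exception. Of 9 markers, 4 (CD3D, CD3E, TYROBP and CD53) had no count in any library, PTPRC, which all leukocytes carry, had at most 1 count, and 1 passed the filter, CD14, at 6, 5 and 16 counts in vector and 125, 117 and 105 counts in shMETTL3 libraries. The summed level of the 9 markers was 0.613 to 1.29 CPM in vector and 5.99 to 7.75 CPM in shMETTL3 libraries. Endothelial markers were at 0 to 0.184 CPM in vector and 1.45 to 2.02 CPM in shMETTL3 libraries over 4 genes, of which CDH5 had 0, 0 and 2 counts in vector and 30, 28 and 30 in shMETTL3 libraries and VWF had no count. Fibroblast markers summed to 6.96 to 10.1 and 15.4 to 16.5 CPM over 8 genes, with COL1A1 and THY1 called higher and COL1A2 at 0 in 5 of the 6 libraries. CDH5 and THY1 passed the filter through the shMETTL3 libraries only, so that their rise was a condition of their being tested. The same held for CD14, since its vector replicates 1 and 2 lay under the filter's 0.559 CPM. Platelet markers summed to 7.72 to 8.08 and 4.45 to 4.72 CPM over 4 genes, with 3 called lower and GP9 at 0. Of the 3, PF4, at 21, 24 and 25 counts in vector and 7, 8 and 3 in shMETTL3 libraries, passed the filter through the vector libraries only. The part of such markers in the rises of ITGAX, ITGAM, ITGB2 and ITGA11 was not tested.

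**Figure D2:**
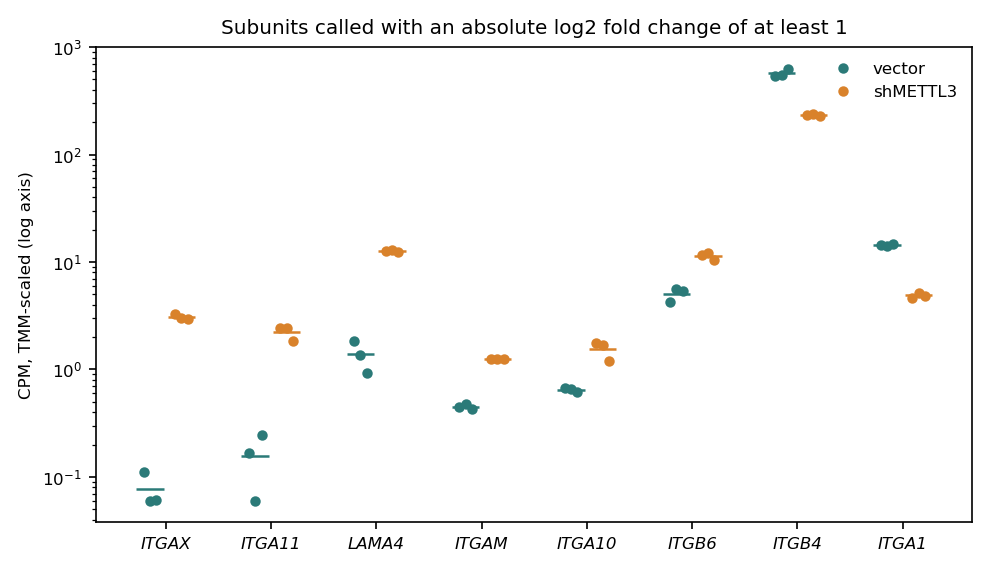
TMM-scaled CPM in each library, on a log axis, of the 8 subunits called with an absolute log2 fold change of at least 1, with 3 vector and 3 shMETTL3 points per gene and their mean as a line. For every gene the 3 shMETTL3 points lie on one side of the 3 vector points. ITGB4 is the only one of the 8 above 100 CPM.

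Among laminins, 3 chains rose (LAMA3, LAMA4 and LAMC3), 3 fell (LAMA5, LAMB1 and LAMB3) and 4 tested chains were not called, so that the share called, 60.0%, lay near the 66.6% of all tested genes. LAMA5, the main laminin alpha chain of adult epithelia, made up 95.7% ± 0.575 (SD, n = 3) of the summed laminin alpha level per length in vector and 88.2% ± 0.127 in shMETTL3 libraries. LAMA5 itself had 438.7, 456.5 and 496.1 CPM in vector and 391.2, 405.2 and 402.7 CPM in shMETTL3 libraries, a log2 fold change of -0.21 (standard error 0.052, edgeR quasi-likelihood adjusted p = 0.000697). This small fall was lost with scaling by library size alone, at -0.039 (adjusted p = 0.496 from the same test). LAMA4, the alpha chain of vessels and mesenchyme, rose from 33, 23 and 15 counts in vector to 244, 258 and 195 counts in shMETTL3 libraries. On the log2 scale it rose by 3.17 (standard error 0.17, adjusted p = 2.44e-15 from the same test), and it took 0.456% ± 0.174 of the alpha chain level in vector and 4.40% ± 0.124 in shMETTL3 libraries. LAMA4 occupies bases 112429134 to 112576141 of chromosome 6 (GRCh37, minus strand).

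LAMA3 and LAMB3 encode chains of the laminin of the hemidesmosome, the ligand of the ITGA6 and ITGB4 receptor, and their mRNAs moved in opposite directions. LAMA3 had 16.6, 16.4 and 15.0 CPM in vector and 29.1, 29.7 and 30.1 CPM in shMETTL3 libraries, a log2 fold change of 0.89 (standard error 0.077). LAMB3 had 117.8, 118.0 and 126.1 CPM in vector and 71.8, 79.6 and 78.1 CPM in shMETTL3 libraries, a log2 fold change of -0.66 (standard error 0.055). Neither gene's groups overlapped, and the adjusted p was 6.66e-11 for LAMA3 and 4.29e-11 for LAMB3 in edgeR's quasi-likelihood test. LAMA3 was the scarcer of the pair in both groups, and its ratio to LAMB3 in RPKM rose from 0.050 ± 0.00463 to 0.146 ± 0.00592 (SD, n = 3 each).

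Since LAMA3 and LAMB3 encode chains of one trimer and moved in opposite directions, the 250 bases before their RefSeq starts were read from GRCh38.p14. Both hold the AP-1 motif TGANTCA, read on either strand, which was in 6.57% of all 35116 RefSeq promoters of the same length and in 2 of the 26 subunits with a promoter in the table. A subunit was counted if any of its listed starts held the letters, whereas the share of all promoters is per start. The windows are chr18:23872770-23873019 on the plus strand for LAMA3 and chr1:209651375-209651624 on the minus strand for LAMB3, the latter 1 of 3 starts listed. RefSeq starts were not matched to the canonical transcripts used for RPKM. The LAMA3 window, at the only start listed for it, may thus belong to another transcript of the gene. Capitals mark the motif.
LAMA3: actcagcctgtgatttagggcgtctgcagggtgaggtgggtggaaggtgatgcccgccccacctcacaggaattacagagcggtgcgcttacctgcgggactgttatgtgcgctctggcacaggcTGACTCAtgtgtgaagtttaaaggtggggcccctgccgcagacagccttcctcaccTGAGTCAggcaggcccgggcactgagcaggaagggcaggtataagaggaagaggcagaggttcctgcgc
LAMB3: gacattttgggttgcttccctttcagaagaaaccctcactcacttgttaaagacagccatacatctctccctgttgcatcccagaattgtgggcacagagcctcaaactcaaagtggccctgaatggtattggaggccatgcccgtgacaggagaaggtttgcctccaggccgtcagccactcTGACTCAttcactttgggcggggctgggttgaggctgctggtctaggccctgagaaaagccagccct
In LAMA3 the motif begins 125 and 69 bases before the start, and in LAMB3 67 bases before it. The motif nearer the LAMA3 start overlaps the E-box CACCTG by its first letters. A match of letters does not show that a factor binds, and the part of the motif in the changes of LAMA3 and LAMB3 was not tested.

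The E-box CACCTG, read on both strands as CACCTG or CAGGTG and known as a site of EMT repressors, was in 17.5% of all promoters and in 8 of the 26 subunits. The 8 were ITGA6, LAMA5 and LAMB3, which fell, ITGA11, ITGB5, ITGB6 and LAMA3, which rose, and LAMB4, which was not tested. The GC box GGGCGG, read on both strands, was in 42.6% of all promoters and in 14 of the 26. The windows of ITGB6 (chr2:160200273-160200522, minus strand) and ITGA11 (chr15:68432164-68432413, minus strand) are shown because both genes rose by more than 1 on the log2 scale and hold the E-box, given in capitals.
ITGB6: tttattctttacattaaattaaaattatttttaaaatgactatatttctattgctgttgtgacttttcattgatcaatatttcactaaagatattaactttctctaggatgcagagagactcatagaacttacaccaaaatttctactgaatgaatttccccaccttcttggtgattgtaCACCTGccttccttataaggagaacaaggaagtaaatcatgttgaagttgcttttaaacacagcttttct
ITGA11: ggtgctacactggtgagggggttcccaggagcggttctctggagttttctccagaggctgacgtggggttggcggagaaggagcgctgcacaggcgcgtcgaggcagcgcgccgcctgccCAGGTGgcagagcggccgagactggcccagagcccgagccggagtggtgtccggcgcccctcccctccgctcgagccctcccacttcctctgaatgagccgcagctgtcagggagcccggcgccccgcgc

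The chains of the more general laminins fell or were not called. LAMB1, the laminin chain with the highest level over canonical transcripts but, over all annotated exons, below LAMC1 in the mean of the 6 libraries and not in the vector group, had 765.3, 713.0 and 743.6 CPM in vector and 542.2, 534.5 and 518.7 CPM in shMETTL3 libraries, a log2 fold change of -0.48 (standard error 0.049, edgeR quasi-likelihood adjusted p = 2.24e-09). LAMC1, the gamma chain of most laminins, had 325.5, 324.0 and 334.6 CPM in vector and 322.9, 331.8 and 307.2 CPM in shMETTL3 libraries, with overlapping groups and a log2 fold change of -0.032 (standard error 0.049). It was called in opposite directions under 2 alternatives, higher at 0.14 with library size alone (adjusted p = 0.012) and lower at -0.14 with GC and length offsets (adjusted p = 0.00289, both from edgeR's quasi-likelihood test). LAMB2, the alternative to LAMB1 in several trimers, was at 153.2 ± 12.9 and 158.7 ± 2.97 CPM (SD, n = 3 each) and was not called, at 0.051 (standard error 0.056), though it was called higher with library size alone, at 0.23 (adjusted p = 0.000686 from the same test), and without vector replicate 3, at 0.11 (adjusted p = 0.0336). LAMB2 made up 14.3% ± 0.837 of the summed laminin beta level in vector and 19.8% ± 0.132 in shMETTL3 libraries, or 25.3% and 33.9% over all annotated exons.

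LAMC3, a gamma chain of low abundance, had 12, 15 and 15 counts in vector and 31, 30 and 26 counts in shMETTL3 libraries, a log2 fold change of 0.93 (standard error 0.29). LAMA2, the alpha chain of muscle basement membrane, stood at 16 to 28 counts per library and was not called, at 0.25 (standard error 0.29). Summed over the chains of a class, the laminin beta level went from 188.1 ± 6.57 to 141.1 ± 2.17 RPKM and the alpha level from 42.4 ± 2.43 to 39.7 ± 0.696 RPKM (SD, n = 3 each). In the beta class the groups were apart, and in the alpha class the lowest vector library, at 40.3 RPKM, was next to the highest shMETTL3 library, at 40.2 RPKM. Over all annotated exons the laminin beta sums were lower, at 88.1 and 68.2 RPKM, with the same direction.

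The 9 subunits that were not tested had few counts. ITGA8 had no count in any library, which allows a level of up to 3 counts in each. ITGA4, a receptor for fibronectin and VCAM, had 0, 1 and 0 counts in vector and 18, 9 and 9 counts in shMETTL3 libraries, a ratio of summed counts of 33.2 with a 95% counting interval from 5.59 to 1350.0. ITGB3, the beta chain of the vitronectin receptor of ITGAV, had 1, 0 and 1 counts in vector and 6, 13 and 13 counts in shMETTL3 libraries, a ratio of 14.8 with an interval from 3.76 to 127.0. These 2 were called when no filter was applied, with an adjusted p of 1.67e-06 for ITGA4 and 4.79e-05 for ITGB3 in edgeR's quasi-likelihood test. ITGA4 shares 2813 bases of exons with CERKL on the opposite strand. The other 6, ITGA9, ITGAD, ITGAL, ITGB7, LAMA1 and LAMB4, had at most 10 counts in any library and were not called without the filter either.

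Some subunits are neighbours in the genome. ITGA1 and ITGA2, and LAMB1 and LAMB4, are neighbours on the same strand, with 1 called lower in each pair and the other not called or not tested. The pentamer GGACT, a form of the motif in which METTL3 methylates adenosine, occurred at a median of 1.48 per kilobase of canonical transcript in the 15 higher subunits, 1.23 in the 7 lower and 0.83 in the 7 not called, with ranges of 0.45 to 2.36, 0.52 to 1.87 and 0.37 to 1.58 that overlapped. The 15 higher subunits include ITGAX, ITGA11 and ITGAM, at 2.36, 1.57 and 1.48 per kilobase, whose rise was a condition of their being tested. Over 13870 tested genes with a transcript the median was 0.92 per kilobase. The pentamer is a description of sequence, and m6A was not measured in these libraries. Canonical transcripts of the tested subunits were long, with a median of 5650 bases against 3231 over those 13870 genes. In 14 of the 29, exons overlap opposite-strand genes, and there the counts depend on how strand was treated.

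The genes around the subunits also changed. Among 25 other basement membrane components and integrin ligands, 24 were tested and 22 called, against 66.6% of all tested genes. The calls were 15 higher and 7 lower, where 33.7% and 32.9% of all tested genes were called, and the median log2 fold change was 0.60. FN1, which encodes fibronectin, the ligand of ITGA5, had 1076, 1025 and 1012 counts in vector and 31115, 33787 and 25267 counts in shMETTL3 libraries, a log2 fold change of 4.74 (standard error 0.058, edgeR quasi-likelihood adjusted p = 4.31e-29). The other leading rises were COL4A6, a chain of basement membrane collagen, at 5.21, TNC, which encodes tenascin, at 3.41, and NID1, which links laminin to collagen, at 2.85. Of the 6 chains of collagen IV, the network-forming collagen of basement membranes, COL4A6 was joined by COL4A1 at 1.85, COL4A2 at 1.66 and COL4A5 at 1.99, all called higher, while COL4A3 and COL4A4 fell by 0.34 and 0.24. FREM2 and FRAS1, which form a basement membrane complex of the embryo, fell by 2.33 and 1.16 on the log2 scale. FREM2, at 22, 13 and 13 counts in vector and 6, 3 and 1 in shMETTL3 libraries, passed the filter through the vector libraries only. NID2 and AGRN, which bind the laminin network as NID1 does, were lower by smaller amounts, at -0.23 and -0.21.

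Of 29 genes for integrin adaptors and focal adhesion proteins, 26 were tested and 19 called (73.1%, near the 66.6% of all tested genes), 8 higher and 11 lower, with a median of -0.11. ZYX, which encodes zyxin, fell by 1.91, and FERMT1, the kindlin of epithelia that activates integrins through the beta tail, by 1.65, from 4466, 4201 and 4044 counts to 1524, 1600 and 1252. FERMT3, the kindlin of blood cells, had 4, 6 and 3 counts in vector and 19, 12 and 9 in shMETTL3 libraries and passed the filter through the latter only, and FERMT2, the widely expressed kindlin, was not called, at 0.063. TNS3 and TNS1, which encode tensins, rose by 1.16 and 1.01, and PARVA, a partner of integrin-linked kinase, by 1.08. TLN1, which encodes the talin that switches integrins on, fell by 0.73.

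Of 12 genes for hemidesmosome proteins, tetraspanins and other laminin receptors, all were tested and 10 called (83.3%, against 66.6% of all tested genes), 6 higher and 4 lower, with a median of 0.15. The count was 8 to 11 with single libraries left out. SDC4, a heparan sulfate coreceptor of focal adhesions, rose by 1.32, BCAM, a receptor for LAMA5, by 1.12, and CD82, a tetraspanin, by 1.11. PLEC, which encodes the plectin that ties ITGB4 to keratins, was lower at -0.24, and DST, its relative in hemidesmosomes, was higher at 0.57. COL17A1, a collagen of the hemidesmosome, and CD151, the tetraspanin that binds laminin-binding integrins, were not called, at 0.25 (standard error 0.12) and 0.041 (standard error 0.050).

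Epithelial markers were present in every library, though at a lower sum after knockdown. The summed level of 6 epithelial markers was 9970 to 10600 CPM in vector and 5150 to 5600 CPM in shMETTL3 libraries, with 5 called lower and KRT7 higher at 0.29. EPCAM was at -2.73 and CDH1, which encodes the E-cadherin bound by ITGAE, at -0.58. Markers of alveolar type 2 cells were low in both groups, at 1.96 to 2.23 and 2.43 to 3.04 CPM over 5 genes, with SFTPB past the filter through the shMETTL3 libraries only and SFTPA1 without a count. The part of the epithelial markers in the falls of ITGB4, ITGA6 and LAMB3 was not tested.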

How the data were processed

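RNA was sequenced from 6 libraries of A549 cells, and the authors deposited whole-number read counts per gene symbol without normalization. The submitters' processing notes list cutadapt 3.0, HISAT2 2.2.1, SAMtools 1.13 and HTSeq 0.13.5 with hg19, while the paper's methods name older releases of HISAT2 and htseq. The annotation and strand setting are not given in the sources used here. Groups and replicate numbers came from the sample titles, and 0 columns were left unused.

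Counts were analysed in R 4.3.3 with edgeR 4.0.16 by TMM scaling, filterByExpr, glmQLFit and glmQLFTest, with group as the only term, and Benjamini-Hochberg adjustment over 15125 genes. Standard errors were the unshrunk coefficient divided by the root of F. The floor of a library was 3 counts. METTL3 was also compared by an exact permutation test of log2(CPM + 0.1). RPKM was computed from TMM-scaled CPM and the length of the canonical transcript in GENCODE for GRCh37, which is the deposited data's hg19. Shares and ratios of RPKM were described without a test. Promoters came from RefSeq on GRCh38.p14, where 26 of the 38 subunits matched by symbol.

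The alternatives were RLE, upper-quartile and library-size scaling, DESeq2 1.42.0, limma-voom (limma 3.58.1), no filter or a minimum of 10 counts per library, a block for the replicate number, offsets for GC content and length by loess with a span of 0.3, each library left out, and stricter thresholds. The functions were tested on simulated counts. The replicate numbers name libraries and are not stated to mark a shared culture or day.

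The subunits and gene lists were chosen with earlier results of these data known. Tested subunits are named, except 1 that is not reported here, and library values are given for called subunits with an absolute log2 fold change of at least 1, for the most abundant of each class and for others that a comparison rests on, the latter picked after their values were seen. An absolute log2 fold change of at least 1 was also the rule for adaptors, matrix ligands and laminin receptor partners. Of each of these lists, up to 4 called genes of that size in each direction are named. The cell type markers named, and any further genes, were picked after their values were seen.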

Additional observations from a re-analysis of the deposited data

How the results depend on the processing

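The count of called subunits stayed within 1.5 times 22 under every alternative but 1, with 19 when at least 10 counts were required in every library and 26, 20 higher and 6 lower, with library size alone. A minimum absolute log2 fold change of 1 left 8 called subunits, 6 adaptors, 12 matrix ligands, 3 laminin receptor partners and 2668 of all genes, because it removes small changes. With each library left out in turn, 22 to 25 subunits were called. DESeq2 called 22, 15 higher and 7 lower. Library size alone moved the higher share of all called genes from 50.6% to 65.8%, of the adaptors from 42.1% to 52.6%, of the matrix ligands from 68.2% to 84.2% and of the laminin receptor partners from 60.0% to 80.0%. With GC and length offsets it was 30.4% for the adaptors.

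Of 416 recomputed values of 28 subunits, 402 kept their direction and side of the threshold, 8 changed sign, all of subunits not called under the reported settings, 1 lost its call (LAMA5) and 5 gained one. Of the 8, ITGAV with the GC and length offsets and LAMC1 with library size alone also passed the threshold. The changes of sign were ITGA2 at -0.088 and ITGAV at -0.17 with the GC and length offsets, LAMC1 at 0.14 with library size alone, ITGA2B from -0.21 to 0.61, ITGAV from -0.020 to 0.053 and LAMB2 from -0.007 to 0.11 with 1 library left out. The cause was not tested.

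Deviations of same-numbered libraries correlated weakly, at 0.052, -0.007 and 0.033 for replicates 1, 2 and 3. Replicates 1 and 3 of both groups correlated best with their own number, and replicate 2 of both groups with another number. Whether the numbers mark pairs cannot be settled from 3 libraries per group. With the replicate block, 22 subunits and 10111 of all genes were called, and METTL3 was at -1.36.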
